A study of Homo sapiens with 12 samples.

Results

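The insulin-like growth factor (IGF) axis was examined through 10 of the 19973 genes in the table: the binding proteins IGFBP2, IGFBP3, IGFBP4, IGFBP5 and IGFBP6, the receptors IGF1R, IGF2R and INSR, and the receptor substrates IRS1 and IRS2. The genes were taken by symbol, and IGFBP3 was picked because its reads rose strongly after ARv7 depletion, so its values in that comparison are a description without a test. RNA was sequenced from 12 libraries of prostate cancer cells in 4 groups of 3, all infected with lentivirus. C4-2, a castration-resistant derivative of LNCaP, carried a vector control (C4-2 control) or stably expressed ARv7 (C4-2 ARv7) after puromycin selection. 22Rv-1, a line derived from the CWR22R xenograft, carried a control hairpin (22Rv-1 control) or was depleted of ARv7 by a hairpin (22Rv-1 shARv7). Each group was 1 line with 1 construct plated in triplicate dishes, so the p-values measure the spread between dishes and not between separate infections. In bulk RNA, fewer cells of a type and less RNA per cell cannot be told apart.

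IGF1 and IGF2 are secreted growth factors that signal through IGF1R, a receptor tyrosine kinase, and through INSR, the closely related insulin receptor. Activated receptors phosphorylate IRS1 and IRS2, docking proteins that recruit PI3K and so switch on AKT. The IGF binding proteins hold the ligands outside the cell and either withhold them from the receptor or carry them to it, and proteases cut the binding proteins to free the ligand. IGF2R, the cation-independent mannose 6-phosphate receptor, carries IGF2 and lysosomal enzymes to the lysosome and does not signal as a kinase. In the prostate the axis is known for supporting growth of the epithelium and for its links to androgen signalling.

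Libraries held 12318529 to 14672948 counts, so 3 counts, the floor used here for a gene at the edge of detection, stood at 0.204 to 0.244 CPM by total counts (CPM is counts scaled to a common library total; the CPM values of genes below are further scaled by edgeR's TMM factors). C4-2 control replicate 3 differed most from the other libraries of its group, at 12.3 and 6.85 on a chi-square scale of count differences (1 is sampling noise alone) where every other pair of replicates gave 2.10 to 4.64. KRT8 and KRT18, keratins of luminal epithelium, were present in every group, with group means of 42.9 to 73.1 FPKM and 38.4 to 67.2 FPKM (FPKM is counts scaled to gene length and to the total). KRT19, a further luminal keratin, was at 0.529 to 0.846 FPKM in C4-2 control and 3.41 to 4.56 FPKM in C4-2 ARv7. In 22Rv-1 it was at 30.3 to 58.2 FPKM. Endothelial markers summed to 0.580 to 4.56 FPKM, immune markers to 0.0708 to 7.07 FPKM, fibroblast and smooth muscle markers to 1.11 to 12.2 FPKM and neuroendocrine markers to 6.35 to 150 FPKM. The endothelial marker CDH5 and the pan-leukocyte marker PTPRC were each under 1 FPKM in all 4 groups, and the fibroblast proteoglycan gene LUM was at 8.45 FPKM in 22Rv-1 control.

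The stretches of DNA just upstream of 4 genes with changes described here are shown. IGFBP3 and IGFBP5 were higher after ARv7 depletion, both without a test, and IGFBP5 on only 71 reads against 11. IGF1R was higher with ARv7 in C4-2 and lower after its depletion in 22Rv-1. IGF2R had the largest change in C4-2 among the 7 of the 10 genes tested there. Other genes called in both lines are not shown. Each sequence runs 5′ to 3′ on the gene's strand, from 250 to 11 bases before the RefSeq start on GRCh38.p14. Capitals mark TATANA and GGGCGG on either strand in IGFBP3, where the capitals TCTATATA hold 2 overlapping TATANA matches. They mark GGGCGG in IGF1R and CACGTG in IGF2R; IGFBP5 held none of the motifs searched.
IGFBP3 (chr7:45921283-45921522, minus strand): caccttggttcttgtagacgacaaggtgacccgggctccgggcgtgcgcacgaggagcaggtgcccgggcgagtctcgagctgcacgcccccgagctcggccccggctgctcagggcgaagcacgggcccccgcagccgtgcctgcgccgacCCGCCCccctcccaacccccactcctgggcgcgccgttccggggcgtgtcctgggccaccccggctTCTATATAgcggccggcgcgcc
IGFBP5 (chr2:216695560-216695799, minus strand): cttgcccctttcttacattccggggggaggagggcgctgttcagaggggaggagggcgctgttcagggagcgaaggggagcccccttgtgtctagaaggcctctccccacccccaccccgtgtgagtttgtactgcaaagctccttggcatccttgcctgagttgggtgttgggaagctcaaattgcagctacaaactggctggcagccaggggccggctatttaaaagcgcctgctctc
IGF1R (chr15:98648289-98648528, plus strand): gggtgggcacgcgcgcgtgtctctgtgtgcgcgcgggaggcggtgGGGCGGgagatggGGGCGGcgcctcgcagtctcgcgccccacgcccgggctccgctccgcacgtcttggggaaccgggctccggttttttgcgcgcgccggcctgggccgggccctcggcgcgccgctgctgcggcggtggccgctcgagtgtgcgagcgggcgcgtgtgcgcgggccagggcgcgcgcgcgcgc
IGF2R (chr6:159968832-159969071, plus strand): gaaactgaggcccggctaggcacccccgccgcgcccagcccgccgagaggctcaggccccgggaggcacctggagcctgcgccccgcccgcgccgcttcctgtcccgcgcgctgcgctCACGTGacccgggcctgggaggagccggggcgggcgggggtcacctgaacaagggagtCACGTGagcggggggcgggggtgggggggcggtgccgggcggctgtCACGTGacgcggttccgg

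All 10 genes matched an entry in the RefSeq promoter table, with 12 entries in all because IGFBP2 has 3. IGFBP1 was not matched. TATANA, the core of a TATA box, was found upstream of IGFBP3 and IGFBP4 and in 17.4% of the 35116 promoters searched, on both strands. In IGFBP3 the matches began 32 and 30 bases before the start. GGGCGG, the GC box bound by SP1-type factors, was upstream of 9 of the 10 genes and in 41.4% of all promoters. CACGTG, the palindromic E-box, occurred 3 times upstream of IGF2R, at 132, 74 and 28 bases before the start, and in no other of the 10 genes, against 6.01% of all promoters. CCAAT, the CCAAT box, was upstream of IRS2 and of 1 IGFBP2 entry, whose start at 216659567 lies inside the gene, and in 31.4% of all promoters. GTAAACA, the core of a forkhead site, was upstream of the RefSeq start of IGFBP6 and in 2.85% of all promoters. Of the 240 bases of the IGFBP6 entry, 221 lie in annotated IGFBP6 exons. The 240 bases were 75% G or C in IGFBP3, 60.0% in IGFBP5, 80.8% in IGF1R and 78.8% in IGF2R, against a median of 57.9% over all promoters. A match is a description of letters and not evidence of binding.

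In C4-2, ARv7 expression was accompanied by lower IGF2R and IGFBP2 and by higher IGF1R, IRS1, IRS2 and IGFBP3. IGF2R fell 2.44-fold, IRS1 rose 1.62-fold, and the other called changes were 1.34-fold to 1.63-fold. Of the 10 genes, 7 had enough reads to be tested, and 6 were called, 4 higher and 2 lower. The background was high: 59.1% of the 12783 genes tested in C4-2 were called, 29.6% higher and 29.5% lower, so the number of calls does not set these genes apart. Beside these changes, the summed endothelial markers were at 3.83 to 4.56 FPKM in C4-2 control and 1.72 to 1.92 FPKM with ARv7, the neuroendocrine markers at 11.01 to 13.4 and 6.35 to 7.85 FPKM, the immune markers at 1.05 to 2.04 and 0.0708 to 0.722 FPKM, and the fibroblast and smooth muscle markers at 1.11 to 1.28 and 2.08 to 2.37 FPKM. Most of the endothelial fall was ESAM, at 3.15 to 3.96 FPKM in control and 0.590 to 0.772 FPKM with ARv7. KDR and TEK also fell, whereas VWF rose from 0.300 to 0.363 FPKM to 0.742 to 0.875 FPKM. CLDN5 rose too, from 0 to a range of 0.251 to 0.284 FPKM. The part of these markers in the results was not tested. A call is an edgeR quasi-likelihood adjusted p under 0.05, adjusted over all genes tested.

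After ARv7 depletion in 22Rv-1, IGF1R was 3.26-fold lower and IRS2 1.50-fold lower, while IGF2R and IRS1 fell by smaller amounts. IGFBP2 was higher, IGFBP5 had more reads in every depleted library, and INSR did not pass the test. Without IGFBP3, 7 genes were tested and 6 were called, 2 higher and 4 lower, against a background of 48% of the 13459 genes tested, with 23.9% higher and 24.1% lower. IGFBP5 passed the filter on low counts only through the depleted libraries, where it was high, so its call was set by that filter; without it 5 of 6 genes were called, 1 higher and 4 lower. The plot of changes by line shows the values and their errors.

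**Figure D1:**
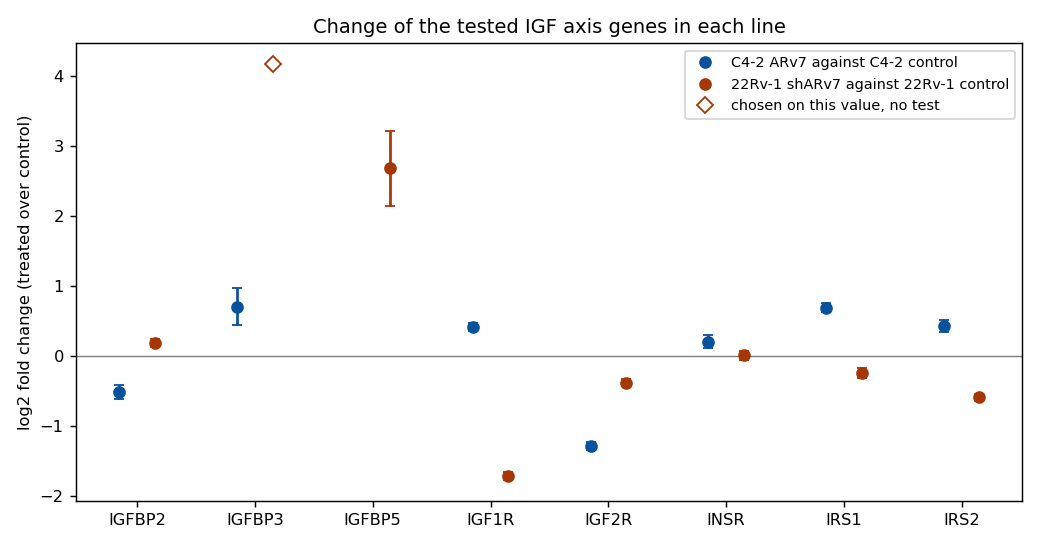
Log2 fold change of each gene that passed the filter on low counts (vertical axis, treated over control), with bars of 1 standard error from edgeR. Blue is C4-2 ARv7 against C4-2 control and brown is 22Rv-1 shARv7 against 22Rv-1 control. The open diamond is IGFBP3 in 22Rv-1, which was chosen on that value and has no test. IGFBP5 in 22Rv-1 is drawn filled, but it passed that filter only through the depleted libraries. Its value is therefore also a description without a test. IGF2R lies below 0 in both lines, while IGF1R, IRS1 and IRS2 lie above 0 in C4-2 and below 0 in 22Rv-1.

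IGFBP3, the most abundant carrier of IGFs in blood, was at 2.27, 1.99 and 2.55 CPM in C4-2 control and 3.57, 4.51 and 3.01 CPM in C4-2 ARv7. Every ARv7 library lay above every control library, at levels that rest on 94 and 160 counts over the groups. The log2 fold change was 0.71 ± 0.26 (SE, n = 3 per group), with an edgeR adjusted p = 0.0254. This call was lost without C4-2 control replicate 1 (edgeR adjusted p = 0.0526), without C4-2 control replicate 2 (edgeR adjusted p = 0.0903) and without C4-2 ARv7 replicate 2 (edgeR adjusted p = 0.141).

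In 22Rv-1 the gene was at 21.7, 20.9 and 23.7 CPM in the control libraries and at 404, 392 and 398 CPM after depletion. The depleted libraries were tightly grouped and far above the controls, 18.0-fold by the fit (log2 4.17), a value given as a description because it chose the gene. By mean FPKM, IGFBP3 moved from rank 7508 of 16210 detected genes in 22Rv-1 control to rank 282 of 16679 in 22Rv-1 shARv7. In C4-2 it ranked 11255 of 16228 in control and 10930 of 16438 with ARv7. Among the 6887 genes with a positive log2 change in 22Rv-1, it held place 36. Beside this rise, the summed fibroblast and smooth muscle markers went from 11.1 to 12.2 FPKM in 22Rv-1 control to 4.34 to 5.13 FPKM after depletion, mostly through LUM (8.45 to 0.913 FPKM), while COL1A1 and COL3A1, collagen genes, were at 1.91 and 0.634 FPKM in control and 2.47 and 1.08 FPKM after depletion. The neuroendocrine markers went from 135 to 150 FPKM to 85.8 to 89.9 FPKM, and most of that sum was ENO2, a glycolytic enzyme. The immune markers went from 0.565 to 1.08 FPKM to 1.16 to 7.07 FPKM, with the highest sum in depleted replicate 1, where LYZ, the lysozyme gene, was at 5.04 FPKM against 0.406 and 1.12 FPKM in the other depleted libraries. Their part in the result was not tested.

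IGFBP2, a binding protein of fetal and tumour tissue, was at 69.8, 84.6 and 102 CPM in C4-2 control and at 62.3, 54.5 and 62.7 CPM in C4-2 ARv7. The groups did not overlap, although the control libraries spread widely and the highest was replicate 3, the library that stood apart. The log2 fold change was -0.51 ± 0.10 (SE, n = 3 per group; edgeR adjusted p = 0.000245), and it was -0.37 without that library. In 22Rv-1 the control libraries held 149, 142 and 127 CPM and the depleted ones 161, 156 and 159 CPM. The depleted libraries were all above the controls by a small margin. The log2 fold change was 0.19 ± 0.055 (SE; edgeR adjusted p = 0.00372), 0.12 without 22Rv-1 control replicate 3, and the call was lost in a single fit of all 12 libraries (edgeR adjusted p = 0.0666).

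IGFBP5, a binding protein that also attaches to extracellular matrix, had 33, 19 and 19 reads after ARv7 depletion against 8, 3 and 0 in 22Rv-1 control. All depleted libraries exceeded all controls. Because the gene passed the filter on low counts only through the depleted libraries, its change is given as a description, with no test. The fitted log2 fold change was 2.68 ± 0.54 (SE, n = 3 per group), and it ranged from 2.08 without 22Rv-1 control replicate 3 to 3.88 without 22Rv-1 control replicate 1. The ratio of total-count levels was 6.81 with an exact 95% interval of 3.59 to 14.3, which covers counting error only. In C4-2, control libraries had 2, 5 and 10 reads and ARv7 libraries 3, 0 and 1, too few to be tested. These groups overlapped, and the ratio was 0.251 (interval 0.0616 to 0.771). In the annotation 298 bp of IGFBP5 exons, 4.63% of their length, lie opposite the antisense gene AC007563.2, whose reads could not be separated because no source used here gives the strand.

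IGFBP4, whose cleavage by PAPPA frees IGFs, and IGFBP6, which prefers IGF2, stayed at the edge of detection and were tested in neither line. IGFBP4 had 0 to 5 reads in every library, with overlapping groups in both lines. IGFBP6 had 1 read in each C4-2 control library and none with ARv7. In 22Rv-1 it had 2, 5 and 8 reads in control and 3, 14 and 3 after depletion, overlapping groups with a ratio of 1.41 (exact 95% interval 0.685 to 2.95). Within each line, a difference was not detectable at this depth for either gene. Between the controls, IGFBP6 had 15 reads in 22Rv-1 against 3 in C4-2, a ratio of 5.19 (exact 95% interval 1.47 to 28.0).

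IGFBP1 is no member of the group of 10 but lies beside IGFBP3. On chromosome 7, in the coordinates of the table (GRCh38), IGFBP3 spans 45912245 to 45921874 on the minus strand and IGFBP1 spans 45888360 to 45893660 on the plus strand, with 18584 bp between them. IGFBP1, a binding protein that liver makes under insulin control, had no read in any of the 6 C4-2 libraries. In 22Rv-1 it had 1, 0 and 0 reads in control and 24, 12 and 19 after depletion. The depleted libraries were all above the controls, with 55 counts against 1, a ratio of 58.1 with an exact 95% interval of 10.0 to 2334. ADCY1, an adenylyl cyclase gene 189128 bp from IGFBP3 that was named after its values were seen, rose in both lines, with a log2 fold change of 0.46 in C4-2 (edgeR adjusted p = 1.13e-05) and 1.22 in 22Rv-1 (edgeR adjusted p = 0.00511), the latter from 43 counts to 99.

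IGFBP2 and IGFBP5 are likewise neighbours on chromosome 2, at 216632828 to 216664436 on the plus strand and 216672105 to 216695549 on the minus strand, 7668 bp apart. In 22Rv-1 both were higher after depletion, 1.14-fold and 6.42-fold by the fit. The IGFBP2 call was lost in a single fit of all libraries, and IGFBP5, without a test, rested on 71 reads against 11. Nearby, RPL37A also rose (log2 0.30, edgeR adjusted p = 1.98e-08). XRCC5 (0.018, edgeR adjusted p = 0.774) and SMARCAL1 (0.048, edgeR adjusted p = 0.688) did not pass the test. MARCHF4 and TNP1 had too few reads to be tested. Of all genes tested in 22Rv-1, 23.9% were called higher. Whether these neighbours responded together was not tested.

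**Figure D2:**
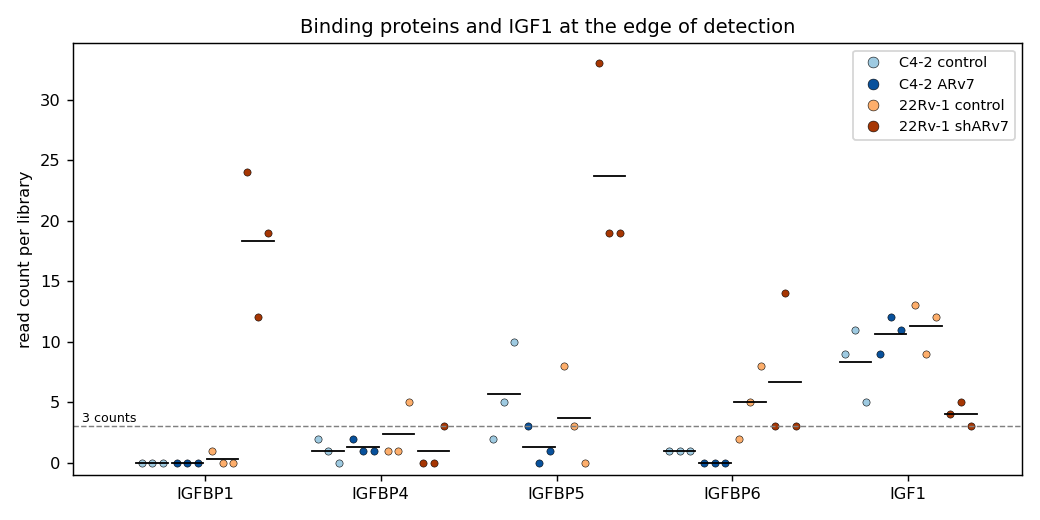
Read counts (vertical axis, linear) of IGFBP1, IGFBP4, IGFBP5, IGFBP6 and IGF1 in each library, as points coloured by group with a bar at the mean; the dashed line is at 3 counts. IGFBP1 and IGFBP5 stand above 3 counts in all 3 depleted 22Rv-1 libraries, with 12 to 24 and 19 to 33 reads.

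IGF1R was at 473, 438 and 447 CPM in C4-2 control and at 632, 591 and 595 CPM in C4-2 ARv7. The groups were well apart, with a log2 fold change of 0.42 ± 0.057 (SE, n = 3 per group; edgeR adjusted p = 3.09e-06). In 22Rv-1 control it was at 183, 185 and 178 CPM and in 22Rv-1 shARv7 at 55.0, 52.8 and 59.4 CPM. Every depleted library was thus below every control library by a wide gap. The log2 fold change was -1.71 ± 0.060 (SE; edgeR adjusted p = 2.68e-39), place 84 among the 6572 genes with a negative log2 change. By mean FPKM, IGF1R went from rank 3646 of 16210 genes to rank 8175 of 16679 in 22Rv-1, and from rank 1314 of 16228 to rank 816 of 16438 in C4-2.

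IGF2R was at 755, 736 and 777 CPM in C4-2 control and at 324, 306 and 301 CPM in C4-2 ARv7. Here too the groups did not overlap, and the log2 fold change was -1.29 ± 0.057 (SE, n = 3 per group; edgeR adjusted p = 2.12e-13). In 22Rv-1 the control libraries held 204, 194 and 177 CPM and the depleted ones 139, 152 and 153 CPM. The decrease was smaller than in C4-2 but larger than the spread between dishes, with a log2 fold change of -0.37 ± 0.054 (SE; edgeR adjusted p = 1.38e-08). IGF2R therefore fell both when ARv7 was added in C4-2 and when it was depleted in 22Rv-1.

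INSR was at 28.96, 29.8 and 26.3 CPM in C4-2 control and at 35.0, 30.7 and 32.5 CPM in C4-2 ARv7. The groups did not overlap, but the log2 fold change of 0.21 ± 0.092 (SE, n = 3 per group) missed the threshold (edgeR adjusted p = 0.0567; 95% interval 0.02 to 0.40). It passed with total-count scaling (edgeR adjusted p = 0.00397), with a filter at a mean of 5 CPM (edgeR adjusted p = 0.0387), in a single fit of all 12 libraries (edgeR adjusted p = 0.0255) and in limma on FPKM (adjusted p = 0.0164 and 0.0184 with pseudocounts of 1 and 0.1). In 22Rv-1 the control libraries held 65.5, 65.6 and 58.5 CPM and the depleted ones 65.5, 63.4 and 62.5 CPM. These groups overlapped, and the log2 fold change was 0.01 ± 0.069 (SE; edgeR adjusted p = 0.896; 95% interval -0.12 to 0.15).

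IRS1, a docking protein shared by IGF1R and INSR, was at 81.9, 72.4 and 78.9 CPM in C4-2 control and at 125, 126 and 125 CPM in C4-2 ARv7. The ARv7 libraries were nearly identical and all above the controls, with a log2 fold change of 0.69 ± 0.065 (SE, n = 3 per group; edgeR adjusted p = 2.44e-08). In 22Rv-1 it went from 66.3, 65.9 and 65.1 CPM to 52.2, 52.8 and 62.2 CPM. The depleted libraries were all below the controls, replicate 3 only slightly, and the log2 fold change was -0.24 ± 0.071 (SE; edgeR adjusted p = 0.00414). In limma on FPKM that call was lost (adjusted p = 0.0718 and 0.0716 with pseudocounts of 1 and 0.1).

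IRS2, the related docking protein, was at 28.2, 28.0 and 26.5 CPM in C4-2 control and at 39.4, 35.6 and 37.0 CPM in C4-2 ARv7. It was higher in every ARv7 library, with a log2 fold change of 0.44 ± 0.086 (SE, n = 3 per group; edgeR adjusted p = 0.000223). In 22Rv-1 it was far more abundant, at 629, 637 and 627 CPM in control and 404, 434 and 422 CPM after depletion. No depleted library reached the controls, and the log2 fold change was -0.59 ± 0.043 (SE; edgeR adjusted p = 3.67e-20). An antisense gene, AL162497.1, overlaps 1.41% of the IRS2 exon length.

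**Figure D3:**
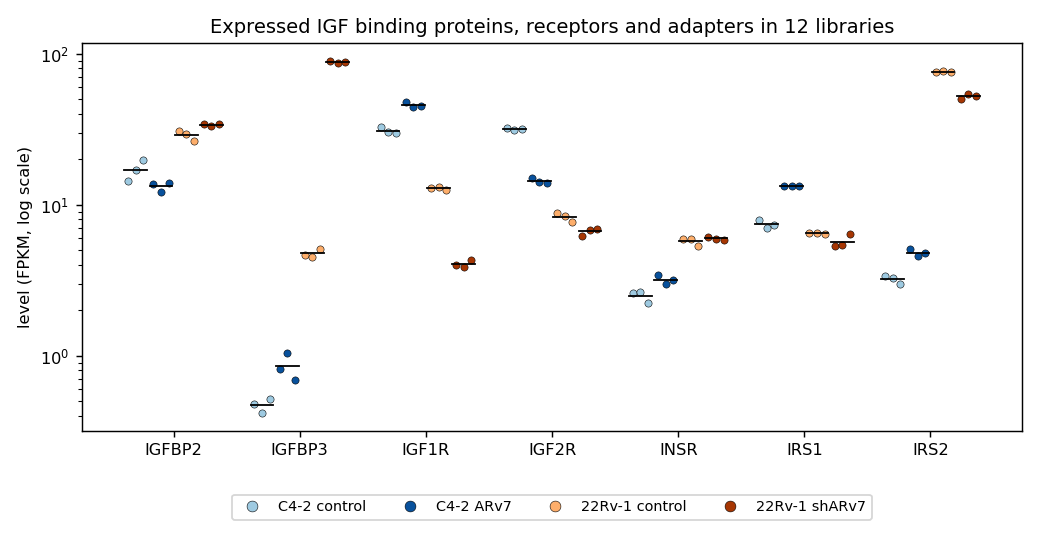
Level (vertical axis, FPKM on a log scale) of the 7 genes with the most reads in each of the 12 libraries, as points coloured by group, with a bar at each group's mean. IGFBP3 runs from 0.471 FPKM in C4-2 control to 88.5 FPKM in 22Rv-1 shARv7, and IRS2 from 3.21 FPKM in C4-2 control to 76.1 FPKM in 22Rv-1 control.

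Levels across the lines were set side by side in FPKM, which is scaled to gene length, with errors as SD over 3 libraries. In C4-2 control, IGF2R (31.7 ± 0.586 FPKM) and IGF1R (30.9 ± 1.74 FPKM) led, followed by IGFBP2 (17.0 ± 2.76 FPKM) and IRS1 (7.42 ± 0.510 FPKM). IRS2 (3.21 ± 0.183 FPKM), INSR (2.49 ± 0.213 FPKM) and IGFBP3 (0.471 ± 0.0494 FPKM) were lower. In 22Rv-1 control the order was different, with IRS2 (76.1 ± 0.582 FPKM) and IGFBP2 (28.9 ± 2.20 FPKM) ahead of IGF1R (12.8 ± 0.220 FPKM) and IGF2R (8.35 ± 0.570 FPKM). IRS1 (6.50 ± 0.0520 FPKM), INSR (5.74 ± 0.359 FPKM) and IGFBP3 (4.76 ± 0.319 FPKM) followed.

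Within each of the 7 genes with the most reads, the 4 groups were ordered by mean FPKM. IGF1R was highest in C4-2 ARv7 (45.7 ± 1.70 FPKM) and lowest in 22Rv-1 shARv7 (4.06 ± 0.248 FPKM). IGF2R was highest in C4-2 control and lowest in 22Rv-1 shARv7 (6.65 ± 0.353 FPKM), with C4-2 ARv7 (14.4 ± 0.553 FPKM) between them. IRS1 was highest in C4-2 ARv7 (13.3 ± 0.0622 FPKM), IRS2 in 22Rv-1 control, and IGFBP2 (33.9 ± 0.472 FPKM) and IGFBP3 (88.5 ± 1.15 FPKM) in 22Rv-1 shARv7. INSR had overlapping ranges in 22Rv-1 shARv7 (5.98 ± 0.126 FPKM) and 22Rv-1 control. IGFBP4, IGFBP5 and IGFBP6, at the edge of detection, also had neighbours in the order that overlapped. How often neighbours overlap over all genes was not counted, so the lack of overlap in the others does not set them apart.

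Compared directly, 22Rv-1 control had 21.4-fold more IRS2 than C4-2 control (log2 4.42, edgeR adjusted p = 2.17e-37). INSR was 2.08-fold higher (edgeR adjusted p = 1.15e-14) and IGFBP2 1.52-fold higher (edgeR adjusted p = 2.23e-08). IGF2R was 4.22-fold lower (edgeR adjusted p = 2.23e-28), IGF1R 2.67-fold lower (edgeR adjusted p = 7.82e-24) and IRS1 1.27-fold lower (edgeR adjusted p = 3.23e-05). IGFBP5, with 11 reads in 22Rv-1 control and 17 in C4-2 control, entered the fit only through the depleted libraries. It is given as a description (log2 -0.71) and was not called. There were 6 calls among 7 genes tested without IGFBP3, with IGFBP5 as 1 of the 7. Of the 14235 genes tested, 83.4% were called, 42.5% higher and 40.9% lower. The control libraries are the same as in the comparisons within each line. IGFBP3, given as a description, was 9.10-fold higher in 22Rv-1 control.

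Whether the response to more ARv7 differed between the lines was tested in 1 fit of all 12 libraries, as the log2 change from control to ARv7 in C4-2 minus the log2 change from the depleted to the control libraries in 22Rv-1. Of 7 genes tested without IGFBP3, 4 were called, 1 positive and 3 negative, against a background of 50.7% of 14235 genes, 27.4% positive and 23.3% negative. IGFBP5, 1 of the 7 and not called, entered the fit only through the depleted libraries. IGF2R differed most (-1.65 ± 0.080 SE; edgeR adjusted p = 2.98e-19): it was lower with more ARv7 in C4-2 and higher with more ARv7 in 22Rv-1. IGF1R was higher with more ARv7 in both lines, by less in C4-2 (-1.28 ± 0.079 SE; edgeR adjusted p = 2.97e-16). IRS1 was also higher with more ARv7 in both, by more in C4-2 (0.46 ± 0.098 SE; edgeR adjusted p = 0.000141).

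IGFBP2 was lower with more ARv7 in both lines, and the difference of -0.32 ± 0.118 (SE; edgeR adjusted p = 0.0229) did not hold under several other settings. It was lost with total counts (-0.13; edgeR adjusted p = 0.356), without C4-2 control replicate 3 (-0.17; edgeR adjusted p = 0.130), without C4-2 ARv7 replicate 2 (edgeR adjusted p = 0.102), without 22Rv-1 control replicate 1 (edgeR adjusted p = 0.0837) and without 22Rv-1 shARv7 replicate 2 (edgeR adjusted p = 0.0509). No difference was called for IRS2 (-0.14, 95% interval -0.32 to 0.03, edgeR adjusted p = 0.169). IGFBP5 is given as a description (0.64), because it entered the fit only through the depleted libraries, where it was high. INSR (0.23; edgeR adjusted p = 0.0907) was called only with total counts (edgeR adjusted p = 0.00296), a mean of 5 CPM (edgeR adjusted p = 0.0486) and limma on FPKM (adjusted p = 0.0124 and 0.0127). IGFBP3, as a description, was higher with ARv7 in C4-2 (log2 0.71) and higher with its depletion in 22Rv-1 (log2 4.17).

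The genes most like IGFBP3 were sought by the root mean square distance between log2 CPM values, centred on the mean of the 12 libraries, among 11158 genes. SEMA3D, a secreted semaphorin, was nearest at 0.40 log2 units, followed by AGR2, an endoplasmic reticulum disulfide isomerase of secretory epithelia, at 0.53. SMOC1, a calcium-binding matrix protein, and KHDRBS2, an RNA-binding protein, were both at 0.67, and TCIM, a regulator of Wnt signalling, was at 0.68. As the choice by likeness to IGFBP3 sets, all 5 were highest in 22Rv-1 shARv7, where SEMA3D stood at 6.22 FPKM and TCIM at 20.3 FPKM. In the C4-2 groups these 5 had mean levels of 0 to 0.264 CPM, and they reached a mean of 5 CPM only through 22Rv-1 shARv7. IGF2R had the largest log2 change in C4-2 among the 7 genes tested, and its nearest genes lay at smaller distances. The distances of the 2 sets are not comparable, because log2 values of so few reads depend on the prior count. SCD, the desaturase that makes monounsaturated fatty acids, lay 0.05 log2 units away, and PSAT1, an enzyme of serine synthesis, 0.12. SPECC1L (0.13), SPIN4 (0.15) and DGKH (0.17) came next. SCD stood at 314, 140, 81.2 and 64.4 FPKM in C4-2 control, C4-2 ARv7, 22Rv-1 control and 22Rv-1 shARv7, against 31.7, 14.4, 8.35 and 6.65 FPKM for IGF2R. Among the 10 genes themselves, IGFBP2 and INSR had the most similar profiles, at 0.29 log2 units. This distance takes in the levels of both lines, and both genes were higher in 22Rv-1 control than in C4-2 control. With ARv7 in C4-2 they went opposite ways, IGFBP2 by log2 -0.51 and INSR, not called, by 0.21.

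**Figure D4:**
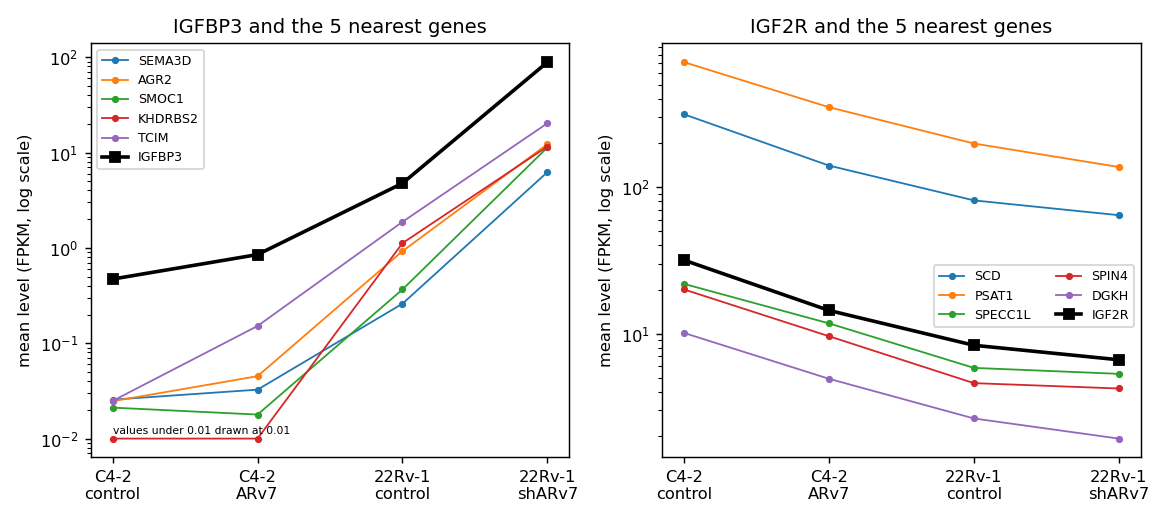
Mean level in each of the 4 groups (vertical axis, FPKM on a log scale; horizontal axis, groups) of IGFBP3 and IGF2R, as black squares, each with its 5 nearest genes as coloured points; lines only join the means of a gene. SCD falls from 314 to 64.4 FPKM across the groups as IGF2R falls from 31.7 to 6.65 FPKM, and IGFBP3 and the 5 genes chosen for their likeness to it peak in 22Rv-1 shARv7.

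The ligands were scarcely detected. IGF1 had 5 to 12 reads per library in C4-2, 9 to 13 in 22Rv-1 control and 3 to 5 after depletion, with a ratio of 0.373 (exact 95% interval 0.176 to 0.738) in 22Rv-1. IGF2 had 2 reads over the 22Rv-1 control libraries, 5 after depletion and none in C4-2, and INS had none in any library. IGFALS, which stabilises IGFBP3 and IGFBP5 complexes in blood, had 35, 32 and 41 reads in C4-2 control and 8, 12 and 9 in C4-2 ARv7. In C4-2 IGFALS passed the filter on low counts only through the control libraries, where it was high. Its change there is given as a description, a fitted log2 fold change of -1.93 and a ratio of 0.287 (exact 95% interval 0.184 to 0.436). In 22Rv-1 IGFALS fell by log2 -0.73 (edgeR adjusted p = 0.0109). IGFBPL1, a gene related to the binding proteins, had 57 to 89 reads in 22Rv-1 control and 73 to 96 after depletion and did not pass the test (edgeR adjusted p = 0.423). IGFBP7 had 0 to 6 reads in every library.

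Among 10 binding-protein proteases and their inhibitors, 5 were tested in C4-2, with 2 higher and 3 lower, and 8 in 22Rv-1, with 4 higher and 2 lower, where 59.1% and 48% of all genes tested were called. The median log2 change of those tested was -0.52 in C4-2 and 0.49 in 22Rv-1, against 0.01 for all genes in each line. These medians are over different genes, with proteases and inhibitors together, so they do not compare the lines. KLK3 (prostate-specific antigen) and KLK2, androgen-regulated kallikreins that can cut IGFBP3, rose in C4-2 by log2 1.91 and 2.23 (edgeR adjusted p = 1.4e-15 and 7.15e-16). They also rose in 22Rv-1 after depletion, by 0.65 and 0.33 (edgeR adjusted p = 5.43e-07 and 9.13e-05). STC2, a stanniocalcin that inhibits the protease PAPPA, fell in both lines, by log2 -1.16 in C4-2 and -0.42 in 22Rv-1 (edgeR adjusted p = 4.83e-13 and 1.16e-06). STC1, the other stanniocalcin, fell in 22Rv-1 (-1.15; edgeR adjusted p = 4.51e-19). PAPPA2, which cuts IGFBP3 and IGFBP5, had 53 reads after depletion against 8 in 22Rv-1 control, a ratio of 6.99 (exact 95% interval 3.30 to 17.0). It too passed the filter only through the depleted libraries, so its place among the 4 called higher and in the 22Rv-1 median was set by that filter. HTRA1, a secreted serine protease, fell in C4-2 (-1.82; edgeR adjusted p = 1.09e-05) and did not pass in 22Rv-1 (edgeR adjusted p = 0.307). CTSD, the lysosomal protease cathepsin D, fell in C4-2 (-0.52; edgeR adjusted p = 6.3e-05) and rose in 22Rv-1 (0.80; edgeR adjusted p = 2.63e-10). PAPPA did not pass in 22Rv-1 (edgeR adjusted p = 0.155).

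Of 21 proximal adapters and receptor regulators, 17 were tested in C4-2, with 4 higher and 7 lower, and 18 in 22Rv-1, with 3 higher and 7 lower, beside 59.1% and 48% of all genes called. Their median log2 changes were -0.15 and -0.10. SOCS2, a suppressor of cytokine and growth hormone signalling, rose in C4-2 (0.64; edgeR adjusted p = 3.82e-08) and fell in 22Rv-1 (-1.50; edgeR adjusted p = 1.01e-12), the direction of IGF1R in each line. FURIN, the protease that matures the IGF1R and INSR precursors, did the reverse, at -1.12 in C4-2 (edgeR adjusted p = 5.76e-10) and 0.62 in 22Rv-1 (edgeR adjusted p = 4.39e-16). GRB14, an adapter that inhibits INSR, rose in 22Rv-1 (1.34; edgeR adjusted p = 1.28e-10). With total-count scaling, which raised the median log2 change of all genes to 0.15 in C4-2, both counts became 5 higher and 5 lower.

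Of 30 genes of PI3K, AKT, TSC and mTOR, 28 were tested in C4-2, with 8 higher and 13 lower, and 29 in 22Rv-1, with 3 higher and 15 lower. Of all genes, 29.6% were called higher and 29.5% lower in C4-2, and 23.9% and 24.1% in 22Rv-1. Their median log2 changes were -0.13 and -0.17. With total-count scaling the C4-2 split turned to 11 higher and 7 lower, while 22Rv-1 had 4 higher and 12 lower. PIK3CD, a PI3K catalytic subunit, fell in C4-2 (-1.64, edgeR adjusted p = 4.07e-15). In 22Rv-1 it had 11, 3 and 11 reads in control and 36, 45 and 61 after depletion, a fitted log2 change of 2.52. There it passed the filter on low counts only through the depleted libraries, so its place among the 3 called higher was set by that filter. PHLPP1, a phosphatase that acts on AKT, rose in C4-2 (0.59; edgeR adjusted p = 5.65e-06) and fell in 22Rv-1 (-0.55; edgeR adjusted p = 5.37e-09). EIF4EBP1, a repressor of translation that mTOR inactivates, fell in both lines (-0.69 and -0.44; edgeR adjusted p = 2.52e-06 and 1e-10).

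FOXO transcription factors are held out of the nucleus by AKT. Of 15 FOXO factors and target genes, 13 were tested in C4-2, with 6 higher and 4 lower, and all 15 in 22Rv-1, with 9 higher and 4 lower, beside the same shares of all genes. The median log2 changes were -0.01 and 0.43, against 0.01 for all genes in each line. TXNIP, an inhibitor of thioredoxin and glucose uptake, rose in both lines, by 4.28 in C4-2 and 3.15 in 22Rv-1 (edgeR adjusted p = 4.12e-19 and 1.25e-45). PDK4, which restrains pyruvate entry into mitochondria, rose in 22Rv-1 (3.53; edgeR adjusted p = 1.08e-60). SESN3, a sestrin that restrains mTOR, rose in C4-2 (0.65; edgeR adjusted p = 6.73e-09) and fell in 22Rv-1 (-1.71; edgeR adjusted p = 3.59e-40). TRIB1, a pseudokinase, rose in 22Rv-1 (0.94; edgeR adjusted p = 1.93e-23).

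**Figure D5:**
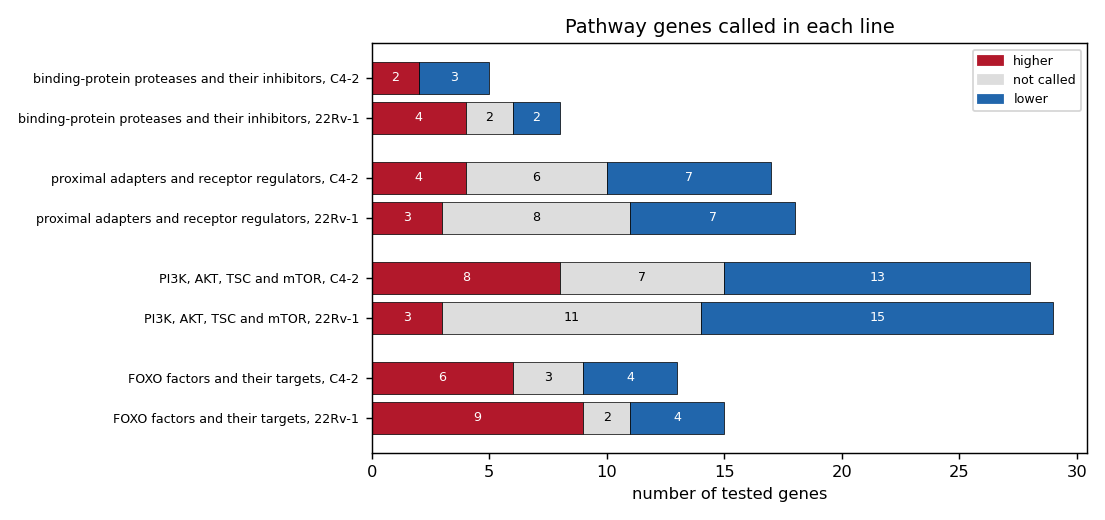
Number of tested genes (horizontal axis) called higher (red), called lower (blue) or not called (grey) in each of 4 pathway groups, in C4-2 ARv7 against control and 22Rv-1 shARv7 against control. The bar of PI3K, AKT, TSC and mTOR in 22Rv-1 holds 3 higher and 15 lower of 29, and that of FOXO factors and targets in 22Rv-1 holds 9 higher and 4 lower of 15, where 23.9% of all genes were called higher and 24.1% lower.

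Among the proteins that bind IGF2 messenger RNA, IGF2BP3 rose in C4-2 (log2 1.48; edgeR adjusted p = 3.31e-09) and did not pass the test in 22Rv-1 (edgeR adjusted p = 0.576). IGF2BP1 rose in 22Rv-1 (1.49; edgeR adjusted p = 4.65e-06), and IGF2BP2 did not pass there (edgeR adjusted p = 0.541). Total counts moved the share of all called genes that were higher from 50.03% to 67.2% in C4-2 and from 54.0% to 72.0% in the difference between lines. The called changes of the IGF axis genes kept their direction under that scaling, whereas the uncalled IRS2 difference turned to 0.044.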

How the data were processed

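RNA was sequenced from 12 libraries on an Illumina NovaSeq, per the labels' protocols, which give Cutadapt 2.7 for trimming. No source used here gives the aligner, the read counter or whether the kit kept strand. The deposited table gives raw read counts per gene, and FPKM, in which the authors divided counts by gene length and by the total of the library. The submitters' processing notes name hg18, but 19884 of the 19895 gene identifiers found in GENCODE 29 had a start or end within 10000 bp of it, so the coordinates are GRCh38. Of 19974 lines, 1 named no gene and was left out.

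Each line was fitted with edgeR 4.0.16 (filterByExpr, TMM, quasi-likelihood F-test, Benjamini-Hochberg over all genes tested), and a fit of 4 groups gave the comparisons between lines. CPM values are TMM-scaled within a line. Ratios of low counts use total counts with exact 95% intervals, which cover counting error only, because PCR copies were not told apart. Alternatives were DESeq2 1.42.0 and its size factors, total counts, other filters, a replicate block, limma 3.58.1 on log2(FPKM + 1) and log2(FPKM + 0.1) at a mean of at least 1 FPKM, 1 fit of all libraries, and leaving out each library in turn. List counts under other scalings were added after seeing the data. Promoter sequences come from RefSeq on GRCh38.p14. The pipeline was tested on simulated data.

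The 10 genes, the lists and the rules were chosen with earlier results of these data known. All 10 were named, with up to 4 genes per list by smallest adjusted p, the tested or detected ligands, other binding proteins and proteases, the neighbours IGFBP1 and IGFBP2, and the 5 nearest genes at a mean of at least 5 CPM (log2 with a prior count of 2). Same-numbered libraries did not deviate together (r from -0.06 to 0.02), so the numbers do not pair them. A check of the labels and the sum of the luminal markers are not reported here.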

Additional observations from a re-analysis of the deposited data

Results flagged for a closer look

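The effect of more ARv7 differed between C4-2 and 22Rv-1 in a test of the difference itself (edgeR, 4-group fit, log2 scale, C4-2 minus 22Rv-1) for 4 genes of the IGF axis. IGF2R differed by -1.65, with opposite directions in the lines. IGF1R differed by -1.28 and IRS1 by 0.46, each with the same direction in both lines. IGFBP2 differed by -0.32, the value that was lost under several settings. The background for such a difference was 50.7% of all genes tested.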

How the results depend on the processing

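Of 533 values of the IGF axis genes under the alternatives, 502 kept their direction and side of the threshold, 13 lost a call, 9 gained one, 6 reversed and 3 moved by more than the spread between dishes. Those that moved were the IGFBP3 descriptions under limma on log2(FPKM + 1), at 3.96 in 22Rv-1, 4.29 in the difference between lines and 1.97 between the controls, where the pseudocount shrinks low levels. None of the reversals was in a called value. In 22Rv-1, INSR turned to -0.045 without 22Rv-1 control replicate 3 and to -0.0074 without 22Rv-1 shARv7 replicate 1, in a leave-one-out range of -0.045 to 0.037. The difference between lines turned to 0.044 with total counts and 0.029 with limma on log2(FPKM + 0.1) for IRS2, and to -0.53 without C4-2 ARv7 replicate 1 for IGFBP5, which ranged from -0.53 to 1.85. Between the controls, IGFBP5 turned to 0.0101 without C4-2 control replicate 3, in a range of -1.91 to 0.0101. The cause was not tested.

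Leaving out each library in turn gave 6673 to 7870 called genes in C4-2, 5793 to 6532 in 22Rv-1, 6752 to 7308 in the difference and 11640 to 11965 between the controls. The IGF axis genes called were then 5 to 6, 6, 3 to 4 and 6, with IGFBP3 counted in C4-2 only. The 6 in 22Rv-1 include IGFBP5, whose call was set by the filter on low counts. In the main fits 59.1%, 48%, 50.7% and 83.4% of all genes tested were called. With the replicate block, 7310, 6203, 6863 and 11777 genes were called in these comparisons, and the block changed no call of an IGF axis gene. Depth limits IGFBP4, IGFBP5 and IGFBP6, whose levels rest on a few reads per library.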
